A study of Sus scrofa with 54 samples.

Results

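TLR2, TLR4, LY96 and CD14 are the genes through which cells of the gut wall sense bacteria, and their transcripts were followed in the ileum of 54 piglets. All probesets that the platform annotation names for these genes were taken, which gave 9 of 24123 probesets, 1 for TLR2, 5 for TLR4, 1 for LY96 and 2 for CD14. All 9 belonged to the 24057 probesets tested. The question was how the level of each gene differed between piglets reared in different environments and how it changed between days 5, 28 and 56 of life.

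The piglets were Large White × Landrace, bred from sows inseminated by the same boar. IR piglets were born indoors, moved soon after birth to individual isolators, fed milk replacer until weaning and given antibiotics daily (Baytril, which is enrofloxacin, and an amoxicillin product). IN piglets were left on the sow in an indoor facility, and OUT piglets on the sow in an outdoor facility. All were weaned at day 28 and then given creep feed. There were 6 piglets and 6 arrays in each of the 9 combinations of group and day. Isolation, antibiotics and milk replacer came together in IR and cannot be told apart, and IR and IN piglets came from the same sows. The sow and the experimental run of each array are not in the labels, so p-values measure the spread between piglets only. Bulk tissue was used, in which fewer cells of a type and less RNA per cell cannot be told apart.

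TLR2 is a cell surface receptor for bacterial lipoproteins and works in pairs with TLR1 or TLR6. TLR4 recognises lipopolysaccharide of Gram-negative bacteria, but only together with LY96, also called MD-2, the small secreted protein that holds the lipid. CD14 is a co-receptor, anchored in the membrane or soluble, that receives lipopolysaccharide from LBP and hands it to the TLR4 and LY96 complex. Monocytes, macrophages and neutrophils are known for these genes, and signals from the receptors pass through adaptors and kinases to NF-kappaB and its cytokine genes.

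Values are log2 signals, so that a difference of 1 is a 2-fold change. The level of a probeset cannot be set against that of another, because probes differ in affinity. A log2 value of 4 was used as a mark of clear signal. It was reached by LY96 in 52 of 54 arrays, by TLR2 in 36 and by the 5 TLR4 probesets in 27, 14, 7, 1 and 0. The CD14 probesets reached it in 2 and 0 arrays. Array medians lay between 3.99 and 4.22, and arrays give no counts, so that the number of arrays limits the precision. Enterocyte markers, whose list held 10 genes on the array, averaged between 11.92 and 13.12 in 53 piglets, as is usual for small intestine.

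The remaining array, OUT replicate 3 at day 5, stood apart from all others and weighs on each result for OUT at that day. It also enters the spread that the groups of a fit share, and so the p-values of comparisons without OUT. In IR against IN at day 5, 88 probesets were called with it and 128 without it. The mean correlation of this array with the rest of its own group was 0.881, the lowest of all 54. The next was 0.935, in IN replicate 3 at day 28. Its enterocyte list averaged 8.75, against 12.19 to 12.59 in the other 5 OUT piglets of that day. Of the 9 member probesets, 5 were higher in this piglet than in any of the other 53. CD14, by its brighter probeset, was at 8.54 in this piglet, against 2.96 to 3.18 in the other 5. TLR4, by its brightest probeset, was at 7.48, against 2.79 to 3.59. LY96 was at 8.11, against 4.09 to 5.39, and TLR2 was at 7.35, against 4.62 to 7.01. Of the brightest probesets that of TLR2 differed least from the other OUT piglets. The array was left out of comparisons within day 5 and of comparisons between days in OUT. Where this changed the call of a member, both values are given. Comparisons between days in IR and IN share its spread in the fit, and were not repeated with only this array left out. Of changes in sign or size, and of calls of other genes, a part is given.

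**Figure D1:**
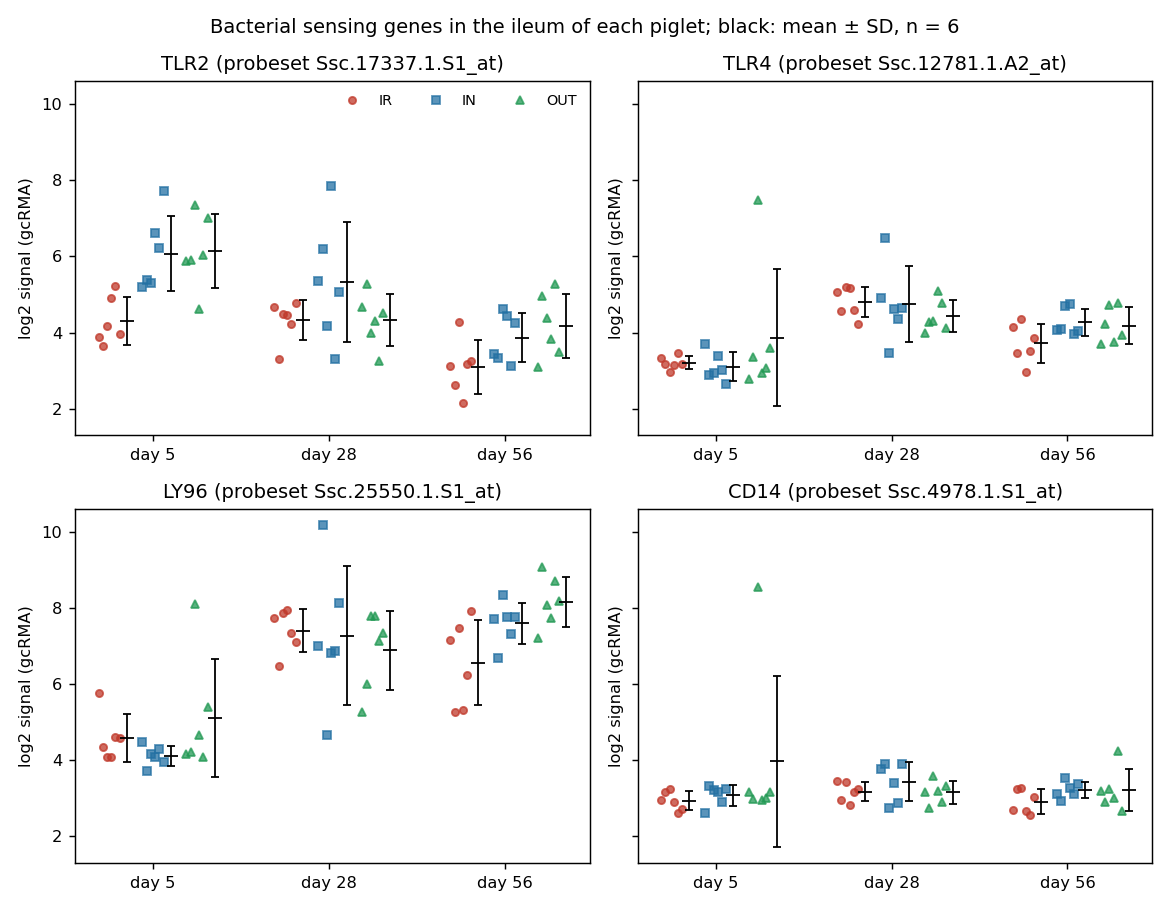
Each point is 1 piglet, with the log2 signal of the brightest probeset of each gene on the vertical axis and day and rearing group (IR, IN, OUT, left to right) on the horizontal axis. Black bars are the mean ± SD of 6 piglets. TLR2 at day 5 was lower in IR than in IN and OUT, LY96 was higher at days 28 and 56 than at day 5, and CD14 lay between 2.56 and 4.25 in all piglets but 1 OUT piglet at day 5.

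A probeset was called when its unadjusted limma p was under 0.01 and its fold change at least 2. Between rearing groups few probesets of any kind were called. At day 5, 1 of the 9 member probesets was called in IR against OUT, where 0.337% of all probesets were, and 1 in IR against IN, where 0.366% were. In IN against OUT at day 5 none was called, beside 0.0499% of all probesets. At day 28 none was called in IR against OUT, IN against OUT or IR against IN, beside 0.154%, 0.191% and 0.495% of all probesets. At day 56, 1 was called in IR against OUT (0.283% of all probesets), and none in IN against OUT (0.274%) or IR against IN (0.287%). The called probesets were those of TLR2 at day 5 and LY96 at day 56, all lower in IR. None of these differences had a Benjamini-Hochberg adjusted p under 0.05 over the 24057 probesets. At an unadjusted p under 0.05, 0 members passed in IN against OUT on any day and 0 in any comparison at day 28, and 2 passed in IR against OUT and 3 in IR against IN at day 56.

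TLR2 was lower in isolator piglets at day 5. Its lowest, median and highest log2 values were 3.65, 4.08 and 5.23 in IR, 5.20, 5.80 and 7.72 in IN, and 4.62, 5.97 and 7.35 in OUT. Of the 6 IR piglets, 5 lay below every IN piglet and 4 below every OUT piglet, so the groups overlapped only at their edges. TLR2 averaged 4.30 ± 0.62 in IR, 6.07 ± 0.99 in IN and 6.13 ± 0.97 in OUT (SD, n = 6 each).

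The TLR2 difference of IR from OUT at day 5 was -1.83 on the log2 scale (SE 0.47), or 3.56-fold lower in IR, with a limma adjusted p of 0.525 and an exact two-sided permutation p of 0.00649. From IN it was -1.77 (SE 0.47), or 3.41-fold lower in IR, with an adjusted p of 0.349 and an exact permutation p of 0.00433. The smallest p that 6 against 6 piglets can give is 0.00216, and 162 such exact tests were made over the 9 probesets and 18 comparisons. Leaving out OUT replicate 3 gave a difference of IR from OUT of -1.59, still called, with an adjusted p of 0.544. IN and OUT differed by -0.06, with a 95% interval of -1.06 to 0.94, so that differences in either direction within that interval remain possible. The sign turned without OUT replicate 3, when it was 0.18.

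At the later days no TLR2 difference between rearing groups was called. At day 28 the lowest, median and highest values were 3.31, 4.47 and 4.76 in IR, 3.31, 5.21 and 7.83 in IN, and 3.25, 4.40 and 5.28 in OUT, and all 3 groups overlapped. IR averaged 4.32 ± 0.53, IN 5.32 ± 1.58 and OUT 4.33 ± 0.68 (SD, n = 6 each), and 3 of the 6 IN piglets lay above every IR and OUT piglet. At day 56 the values were 2.16, 3.16 and 4.27 in IR, 3.11, 3.85 and 4.61 in IN, and 3.09, 4.11 and 5.27 in OUT. The day 56 difference of IR from OUT was -1.07 (SE 0.40), with an adjusted p of 0.660 and an exact permutation p of 0.0455, and it did not meet the threshold for a call. It met it when IR replicate 2 or OUT replicate 1 was left out, at -1.30 and -1.29. The difference of IR from OUT was 1.82 higher at day 28 than at day 5 (SE 0.71). The limma adjusted p of this test was 0.9999, so a change of the contrast with age did not pass adjustment over all probesets.

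LY96 was lower in isolator piglets at day 56. The lowest, median and highest values were 5.26, 6.71 and 7.91 in IR, 6.70, 7.72 and 8.33 in IN, and 7.22, 8.12 and 9.06 in OUT. IR thus spread over a wider range, and 4 of its 6 piglets lay below every OUT piglet and 3 below every IN piglet. The means were 6.56 ± 1.13 in IR, 7.59 ± 0.55 in IN and 8.16 ± 0.66 in OUT (SD, n = 6 each). The difference of IR from OUT was -1.59 (SE 0.44), or 3.02-fold lower in IR, with a limma adjusted p of 0.651 and an exact permutation p of 0.0152. The difference of IR from IN was -1.03 (SE 0.44, adjusted p = 0.795), or 2.04-fold. It was called only when IR replicate 6, the highest of its group, was left out (-1.29) or with the F-test over the 3 groups of a day. That F-test gives 1 p to all 3 comparisons of a day, so it does not single out IR against IN. IN and OUT differed by -0.57, with a 95% interval of -1.50 to 0.36.

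T cell markers had lower means in IR together with LY96 at day 56. The mean over the 9 T cell genes on the array (CD3E and LCK among them) ranged from 5.20 to 6.95 in IR, 5.91 to 7.15 in IN and 5.96 to 7.80 in OUT. All 9 genes had a lower mean in IR than in OUT, with a median difference of -0.92, beside a median of -0.01 over all probesets, and 0 of the 9 were called. Macrophage markers averaged 5.81 to 6.85 in IR, 6.51 to 7.41 in IN and 6.17 to 6.95 in OUT, and 10 of their 12 genes had a lower mean in IR than in OUT, with 0 called. Against IN, 2 of the 12 were called lower in IR, among them CD163, a scavenger receptor of macrophages, at -1.33 (adjusted p = 0.410). All 5 dendritic cell genes had a lower mean in IR than in OUT, also with 0 called. Plasma cell markers averaged 8.91 to 9.42 in IR, 9.48 to 10.03 in IN and 9.14 to 10.09 in OUT, so that IR did not overlap with IN. All 3 plasma cell genes had a lower mean in IR than in IN and OUT, and TNFRSF17, a receptor that keeps plasma cells alive, was called against IN at -1.14 (adjusted p = 0.576). The part of these cells in the LY96 difference was not tested.

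At days 5 and 28 LY96 showed no call between groups. At day 5 its lowest, median and highest values were 4.09, 4.47 and 5.76 in IR, 3.72, 4.13 and 4.47 in IN, and 4.09, 4.44 and 8.11 in OUT. When OUT replicate 3 was left out, the difference of IN from OUT was -0.39, against -0.99 with it. That of IR from OUT was 0.08, against -0.52 with it, so that its sign depended on this array. At day 28 the values were 6.47, 7.53 and 7.93 in IR, 4.66, 6.92 and 10.18 in IN, and 5.26, 7.24 and 7.80 in OUT, and IN held both the lowest and the highest piglet. The difference of IR from OUT was 2.11 lower at day 56 than at day 28 (SE 0.82), with an adjusted p of 0.9998 for that change.

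**Figure D2:**
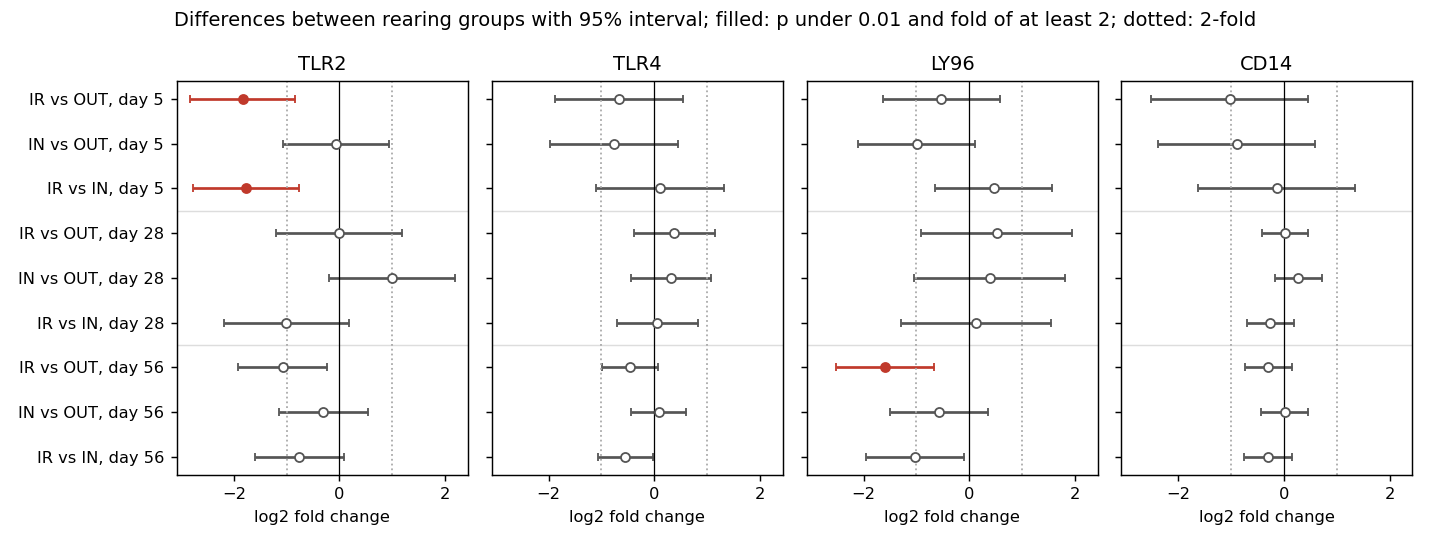
Log2 fold change of the brightest probeset of each gene (horizontal axis) for 9 comparisons between rearing groups (rows), with its 95% interval from limma. Filled points were called, and the 3 of them are TLR2 in IR against OUT and IN at day 5 and LY96 in IR against OUT at day 56.

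TLR4 was not called between rearing groups at any day. Its brightest probeset had lowest, median and highest values of 2.95, 3.17 and 3.46 in IR, 2.66, 2.98 and 3.71 in IN, and 2.79, 3.21 and 7.48 in OUT at day 5. At day 28 they were 4.22, 4.82 and 5.21 in IR, 3.45, 4.63 and 6.49 in IN, and 3.99, 4.29 and 5.08 in OUT. The 3 groups overlapped on both days. At day 56 they were 2.98, 3.69 and 4.36 in IR, 3.95, 4.08 and 4.76 in IN, and 3.69, 4.08 and 4.78 in OUT, and 4 of the 6 IR piglets lay below every IN piglet. The day 56 difference of IR from IN was -0.55 (95% interval -1.07 to -0.02, adjusted p = 0.796). Over the 5 TLR4 probesets and 9 comparisons between groups, differences lay between -0.77 and 0.38, all under 2-fold. The lowest, -0.77 in IN against OUT at day 5, was -0.05 when OUT replicate 3 was left out. For the brightest probeset the difference of IR from OUT at day 5 was -0.66, and 0.06 without that piglet.

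The 5 TLR4 probesets were not equally informative. After group means were removed, the brightest correlated over 54 piglets with the others at r = 0.93, 0.83, 0.88 and -0.24, and without OUT replicate 3 at day 5 at 0.83, 0.56, 0.69 and -0.11 over 53 piglets. The last of these, the dimmest, stayed between 1.91 and 2.81 in all 54 arrays. The probesets share RNA and arrays, and these values describe how alike they are. In 2 of the 5 the name ends in _s_at, which marks probes that can match more than 1 transcript.

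CD14 gave a signal near the floor of the array in all groups. The brighter probeset averaged 2.94 ± 0.25, 3.18 ± 0.25 and 2.92 ± 0.32 in IR at days 5, 28 and 56, and 3.08 ± 0.26, 3.43 ± 0.51 and 3.22 ± 0.22 in IN (SD, n = 6 each). In OUT it averaged 3.97 ± 2.24, 3.16 ± 0.30 and 3.21 ± 0.55. The wide spread in OUT at day 5 came from replicate 3, and without it the 5 other piglets averaged 3.06 ± 0.10 (SD, n = 5). The other CD14 probeset stayed between 2.17 and 2.72 in all 54 arrays. Neither probeset was called in any of 18 comparisons. At this signal a difference in CD14 transcript may not be detectable.

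More members were called between days than between rearing groups, and so were more of all probesets. Between days 28 and 5, 2 of the 9 member probesets were called in IR, 2 in IN and 2 in OUT, where 6.26%, 8.07% and 6.9% of all probesets were called. Between days 56 and 28, 0 were called in IR, 1 in IN and 0 in OUT, beside 2.41%, 2.56% and 3.06% of all. Between days 56 and 5, 1 was called in IR, 3 in IN and 2 in OUT, beside 8.39%, 12.3% and 11.4% of all. Of the 9 comparisons between days, LY96 was called in 6, TLR2 in 4 and TLR4 in 3, and CD14 in 0. The 9 comparisons share samples, since each group at each day serves in 2 of them.

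LY96 rose after day 5 in all 3 rearing groups. In IR it averaged 7.40 ± 0.56 at day 28 and 4.58 ± 0.62 at day 5 (SD, n = 6 each), a change of 2.82 on the log2 scale (SE 0.58, adjusted p = 0.000499), or 7.08-fold, and the days did not overlap. In IN it averaged 7.27 ± 1.81 at day 28 and 4.11 ± 0.26 at day 5, a change of 3.16 (adjusted p = 9.58e-05), also without overlap. In OUT it averaged 6.88 ± 1.03 at day 28 and 5.11 ± 1.55 at day 5, a change of 1.78 (adjusted p = 0.0276), and here the days overlapped. Leaving out OUT replicate 3 at day 5 made the change in OUT 2.38, with an adjusted p of 0.00146. Between days 56 and 5 LY96 changed by 1.98 in IR, 3.48 in IN and 3.05 in OUT, or by 3.95-fold, 11.1-fold and 8.29-fold, with adjusted p of 0.0109, 7.85e-06 and 6.9e-05. The change in OUT was 3.65, or 12.6-fold, with replicate 3 left out, so that the order of IN and OUT depended on that piglet.

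From day 28 to day 56 LY96 took different courses in the group means, and no difference between these courses passed adjustment over all probesets. It changed by -0.84 in IR (95% interval -2.01 to 0.33), 0.32 in IN (-0.85 to 1.49) and 1.27 in OUT (0.11 to 2.44, adjusted p = 0.181). From highest to lowest, the means of LY96 stood in the order OUT day 56, IN day 56, IR day 28, IN day 28, OUT day 28, IR day 56, OUT day 5, IR day 5 and IN day 5. No neighbours in that order differed by more than the larger of their SDs.

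TLR4 rose after day 5 in IR and IN. Its brightest probeset averaged 4.80 ± 0.40 at day 28 and 3.21 ± 0.18 at day 5 in IR (SD, n = 6 each), a change of 1.60 (SE 0.43, adjusted p = 0.00881), and the days did not overlap. In IN it averaged 4.75 ± 0.99 at day 28 and 3.10 ± 0.38 at day 5, a change of 1.65 (adjusted p = 0.00514), with 5 of 6 piglets at day 28 above all those at day 5. At day 56 it averaged 4.27 ± 0.36 in IN, 1.17 above day 5 (adjusted p = 0.0369), close to the threshold for a call. In OUT the changes from day 5 were 0.56 by day 28 and 0.31 by day 56, neither of them called. With OUT replicate 3 left out they were 1.28 (adjusted p = 0.00176) and 1.04 (adjusted p = 0.00621), and both were called, so that this piglet decided the call in OUT. In IR the change from day 28 to day 56 was -1.08 (adjusted p = 0.150, exact permutation p = 0.00433), with 5 of 6 piglets at day 56 below all those at day 28. It was not called in the fit of all 9 groups, whose spread includes OUT replicate 3 at day 5. With only the 3 days of IR in the limma fit it was called (adjusted p = 0.00459).

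The order of the TLR4 means from the highest was IR, IN and OUT at day 28, IN and OUT at day 56, OUT at day 5, IR at day 56, IR at day 5 and IN at day 5. Only IR at day 56 and IR at day 5, neighbours in that order, differed by more than the larger of their SDs, with a gap of 0.514 against an SD of 0.508. The other TLR4 probesets were not called between days in any group.

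TLR2 was called lower after day 5 in sow-reared piglets, and in IR its mean fell by day 56 without a call. In OUT it averaged 4.33 ± 0.68 at day 28 and 6.13 ± 0.97 at day 5 (SD, n = 6 each), a change of -1.80 (SE 0.50, adjusted p = 0.00999), and at day 56 it averaged 4.17 ± 0.85, a change of -1.96 from day 5 (adjusted p = 0.00259). Both were still called when OUT replicate 3 was left out, at -1.56 and -1.72. In IN the change by day 28 was -0.75 (exact permutation p = 0.340) and was not called. In IN it averaged 3.87 ± 0.65 at day 56 and 6.07 ± 0.99 at day 5, a change of -2.21 (adjusted p = 0.000711), or 4.62-fold lower, and the days did not overlap. The step from day 28 to day 56 in IN, -1.46, was called with an adjusted p of 0.0786, and was no longer called without IN replicate 4 at day 28 (-0.95). In IR the change from day 5 was 0.02 at day 28 and -1.20 at day 56 (adjusted p = 0.0878, exact permutation p = 0.0108), and neither was called. At day 56, 5 of 6 IR piglets lay below all those at day 5. From day 28 to day 56 TLR2 in IR changed by -1.22 (exact permutation p = 0.00649), also not called. Of the 10 endothelial genes, 3 in IN and 7 in OUT were called lower at day 56 than at day 5, as were 3 in IR, and 4 in OUT were called lower at day 28 than at day 5. Without OUT replicate 3 the counts in OUT were 5 and 3. None was called higher, and the part of vessel cells in the fall of TLR2 was not tested.

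The highest TLR2 means were those of OUT and IN at day 5, followed by IN at day 28. Then came OUT at day 28, IR at day 28, IR at day 5, OUT at day 56 and IN at day 56, and IR at day 56 was the lowest. Of neighbours in that order, IN and IR at day 56 differed by 0.76, more than the larger of their SDs, 0.71, and no other neighbours did. For the 9 probesets, 81 tests asked whether a difference between rearing groups changed between days. Of these, 3 had an unadjusted p under 0.05 and 0 an adjusted p under 0.05.

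TLR4 and LY96 varied together from piglet to piglet. After the mean of each group and day was removed, their brightest probesets correlated over 54 piglets with Pearson's r = 0.81 and Spearman's rho = 0.74 (permutation within groups, adjusted p over 6 pairs = 6e-05 each, from the smallest p that 100000 resamples can give). Without the 2 piglets farthest in TLR4, OUT replicate 3 at day 5 and IN replicate 2 at day 28, r was 0.69 over 52 piglets. Taken day by day, r was 0.91, 0.86 and 0.71 at days 5, 28 and 56, with rho of 0.71, 0.75 and 0.72 and adjusted permutation p of 0.00738, 0.00672 and 0.00788 for r. The relation thus held within each day. The piglets at its ends were the same for both genes. IN replicate 2 at day 28 had 6.49 for TLR4 and 10.18 for LY96, and IN replicate 3 at day 28 had 3.45 and 4.66.

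**Figure D3:**
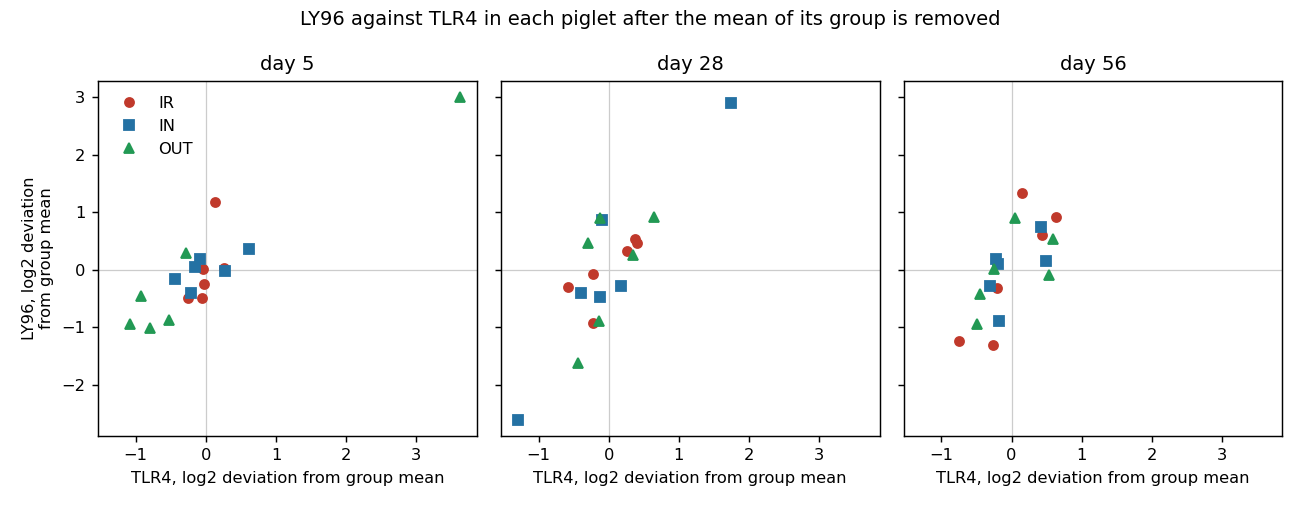
Each point is 1 piglet. The log2 signal of TLR4 (horizontal axis) and LY96 (vertical axis) is shown as the deviation from the mean of the piglet's own group and day, in 1 panel per day, and the points rise together in all 3 panels. The farthest points are OUT replicate 3 at day 5 and IN replicates 2 and 3 at day 28.

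Over all days together the other pairs had a lower r, though at day 56 TLR2 had a higher r with TLR4 and with LY96 than those had with each other, and at day 5 TLR4 had one of 0.92 with CD14. TLR2 correlated with TLR4 at r = 0.41 and rho = 0.43, with LY96 at r = 0.37 and rho = 0.38, and with CD14 at r = 0.35 and rho = 0.36, with adjusted permutation p for r of 0.02, 0.0459 and 0.02. At day 56 alone TLR2 followed TLR4 at r = 0.83 and LY96 at r = 0.76 (adjusted permutation p = 0.0006 each), whereas at day 5 these were 0.39 and 0.33 and at day 28 0.30 and 0.21, with adjusted permutation p between 0.268 and 0.601. Without the 2 piglets farthest in TLR2, IN replicates 4 and 5 at day 28, r over all days was 0.47 with TLR4, 0.45 with LY96 and 0.39 with CD14. With OUT replicate 3 at day 5 left out, TLR2 had r = 0.38 with TLR4, 0.31 with LY96 and 0.37 with CD14, and the adjusted permutation p for r were 0.0656, 0.129 and 0.0608. CD14 correlated with TLR4 at r = 0.80 and rho = 0.45, but without OUT replicate 3 at day 5 r was 0.37 and rho 0.22, so that this relation rested on that piglet. With LY96, CD14 had r = 0.58 and rho = 0.43 over all piglets, and r = 0.40 and rho = 0.32 without that piglet.

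Genes whose values were most like each member over piglets, after group means were removed, were looked up among probesets with 1 symbol. LY96 was most like IL2RG, the shared chain of several interleukin receptors (r = 0.87), CD53, a tetraspanin of leukocytes (0.86), GMFG (0.86), SRGN, the proteoglycan of leukocyte granules (0.84), and SAMHD1 (0.84). All 5 were above the r of 0.81 between LY96 and TLR4. Without OUT replicate 3 at day 5 IL2RG stayed first at 0.83, followed by the T cell marker CD2 at 0.82, with CD53 and GMFG still among the first 5. TLR4 was most like CCL4, PLEK, TNFRSF1B, NR4A3 and IL10, all with r between 0.87 and 0.88. When OUT replicate 3 at day 5 was left out, LY96 came first for TLR4 (0.78), followed by ICAM2, an adhesion molecule of endothelium and leukocytes (0.78), IL7R (0.75), TNFAIP8L2 (0.75) and SRGN (0.73). For TLR2 the values were lower, with RASL11B at 0.59, PIK3CG, a kinase of leukocytes, at 0.55, and MYCBP2, CEBPD and SLA-DRA at 0.54 each, and PLEK at 0.53 took the place of CEBPD when that piglet was left out. CD14 was most like TBXAS1, CSF3, STC1, THBS1 and S100A9, with r between 0.92 and 0.93, but without that piglet other genes took their places, with POLD3 and DNMT1 at 0.70 and CCL19, BCAT1 and CD27 at 0.69. These values describe piglets that share arrays and normalization.

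Few other genes of the pathway were called between rearing groups. Of 4 other Toll-like receptors with a probeset, TLR1, TLR6, TLR8 and TLR9, 0 were called in any of the 9 comparisons. TLR1 and TLR6, the partners of TLR2, differed by 0.21 and 0.25 between IR and OUT at day 5, and by 0.05 and 0.06 without OUT replicate 3. Of 8 other microbe sensors and lipopolysaccharide-binding proteins 0 were called by their brightest probesets. LBP, the serum protein that passes lipopolysaccharide to CD14, differed by -1.18 between IR and IN at day 5 (adjusted p = 0.600) and by -0.73 between IR and OUT. Without OUT replicate 3 these were -1.18 (adjusted p = 0.146) and -1.22 (adjusted p = 0.456), and both were called. BPI, an antibacterial lipopolysaccharide-binding protein of granules, differed by -1.60 between IR and IN at day 56 (adjusted p = 0.776). Another BPI probeset was called in that comparison, at -1.72 (adjusted p = 0.586), and in IN against OUT at day 56, at 1.75 (adjusted p = 0.506). HSP90B1, the chaperone that Toll-like receptors need to fold, differed by -0.92 between IN and OUT at day 28 (adjusted p = 0.978). It was 1 of 10 adaptors, kinases and chaperones, of which 0 were called. Of 8 inhibitors of the pathway 0 were called, and SOCS1 differed by 1.61 between IR and IN at day 28 (adjusted p = 0.683).

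Of 16 cytokines and other targets of NF-kappaB, 1 was called. CCL5, a chemokine for T cells, was lower in IR than in IN at day 56, by a log2 difference of -1.11 (adjusted p = 0.500). CCL2, which attracts monocytes, differed by -1.17 (adjusted p = 0.759) and CXCL2, which attracts neutrophils, by -0.61 (adjusted p = 0.410) in the same comparison, and neither was called. Of the 16 genes, 13 had a lower mean in IR than in IN at that day, with a median of -0.37, beside 0.00 over all probesets. The list averaged 4.16 to 4.66 in the IR piglets and 4.69 to 5.14 in the IN piglets, and 4.45 to 4.94 in OUT. NFKB1, the only NF-kappaB subunit with a probeset, was not called in any comparison.

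Between days the pathway genes changed in both directions. TOLLIP and SIGIRR, which restrain signalling from these receptors, were lower at day 56 than at day 5 in IR (-1.58 and -1.26), IN (-1.97 and -1.29) and OUT (-1.96 and -1.26), with adjusted p of at most 0.000314. Of the same list of 8 inhibitors, SOCS1, CYLD and ATF3 were called higher at day 56 than at day 5 in IN (2.10, 1.203 and 1.66), SOCS1 and CYLD in OUT (1.66 and 1.22) and 0 in IR. ATF3 and NFKBIA were also called in OUT without replicate 3 at day 5, at 1.53 and 1.34, against 0.78 and 0.81 with it. LBP fell over the same days, with log2 changes of -2.32 in IR, -2.998 in IN and -3.26 in OUT and adjusted p of 0.00435, 0.000162 and 5.19e-05. Without replicate 3 at day 5 the LBP change in OUT was -3.76. CCL5 rose by 3.04, 4.21 and 3.43 in IR, IN and OUT (adjusted p of 4.37e-06, 2.94e-09 and 2.83e-07), and CCL4, another chemokine, by 2.24 in IR and 3.22 in IN (adjusted p of 0.0237 and 0.000651). In OUT CCL4 changed by 1.59, which was not called, and without replicate 3, which had 10.30 at day 5 against 2.55 to 3.09 in the other 5, by 2.83, which was called (adjusted p = 1.02e-05). In OUT TLR1 and TLR6 were higher at day 56 than at day 5 by 1.15 and 1.06 (adjusted p of 0.00138 and 0.0101). Neither was called without OUT replicate 3, at 0.98 and 0.87, or in IR or IN. CD180 and LY86, a receptor and partner protein related to TLR4 and LY96, rose over the same days in OUT by 1.18 and 2.37 (adjusted p of 0.00933 and 0.00623).

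Many markers of blood cells were called higher after day 5, as LY96 and TLR4 were. T cell markers averaged 2.85 to 3.50 in IR, 3.15 to 3.45 in IN and 3.02 to 3.48 in OUT at day 5, and 5.03 to 6.89, 3.10 to 6.91 and 3.78 to 6.76 at day 28. Of the 9 T cell genes, 7 were called higher at day 28 than at day 5 in IR, 6 in IN and 6 in OUT. Of the 12 monocyte and macrophage genes 9, 6 and 4 were called higher over the same days (5 in OUT without replicate 3), and their list averaged 6.58 to 7.70 in IR, 5.13 to 7.61 in IN and 5.91 to 6.79 in OUT at day 28. Of the 7 neutrophil genes 1 was called higher in each group between those days. Dendritic cell genes were called higher in 2 of 5, 2 of 5 and 2 of 5, and plasma cell genes in 2 of 3, 1 of 3 and 1 of 3. The 1 B cell gene with a probeset, CD79B, was not called. The part of these cells in the rise of LY96 and TLR4 was not tested.

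At day 5, when TLR2 was lower in IR, no marker of blood cells was called between rearing groups. Macrophage markers averaged 5.11 to 5.78 in IR, 5.21 to 5.62 in IN and 5.10 to 6.39 in OUT, and neutrophil markers 2.64 to 3.11, 2.68 to 3.08 and 2.57 to 6.85, where the highest OUT value is replicate 3 in both. Of these 12 and 7 genes 0 were called. Dendritic cell markers, of which 0 of 5 were called, averaged 3.50 to 4.69 in IR, 3.43 to 4.12 in IN and 3.19 to 5.96 in OUT. Of the 10 endothelial genes 1 was called, LYVE1, a lymphatic vessel marker, which was lower in IR than in OUT by a log2 difference of -1.01 (adjusted p = 0.496). Without OUT replicate 3 it was -0.80 and was not called. The endothelial list averaged 4.78 to 5.58 in IR, 5.19 to 5.86 in IN and 5.43 to 7.52 in OUT, and all 10 genes had a lower mean in IR than in OUT, with a median of -0.51. The other 5 OUT piglets lay between 5.43 and 5.94, and without replicate 3 the mean was lower in IR for 8 of the 10 genes, with a median of -0.41. Of 6 smooth muscle genes and 10 enterocyte genes 0 were called, but FABP1 was called in IR against IN without OUT replicate 3, at 1.42 (adjusted p = 0.194). The part of vessel cells in the TLR2 difference was not tested. The defining neutrophil genes S100A8 and S100A12 were at or below 2.26 and 1.86 in the 53 other piglets, near the floor of the array.

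In OUT replicate 3 at day 5 the member genes were high beside many inflammatory genes, all of which were chosen here after their values were seen. The 4 other Toll-like receptors averaged 2.68, below the 2.78 to 4.58 of the other 53 piglets. Of these 4, TLR1 at 2.47 and TLR6 at 2.38 were below all other piglets, and TLR8 at 2.81 was above them, all at dim signal. Of the 16 NF-kappaB targets, 13 were higher in this piglet than in any other of the 54. The list averaged 9.33 in it, against 3.93 to 4.24 in the other 5 OUT piglets. IL1A was at 11.11 against 2.31 to 3.01, IL1B at 11.70 against 2.76 to 3.19, CXCL2 at 12.49 against 2.56 to 3.03, and TNF at 6.04 against 2.19 to 3.06. Inhibitors of the pathway were high as well, with SOCS3 at 6.74 against 1.94 to 2.31.

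Of the neutrophil genes of this piglet, 4 of 7 were above all others, with S100A9 at 13.79 against 2.28 to 2.59 and LTF, the iron-binding protein of neutrophil granules, at 11.82 against 2.08 to 2.18. Endothelial markers averaged 7.52 against 5.43 to 5.94 and smooth muscle markers 11.89 against 10.26 to 10.77. Of the 10 enterocyte genes, 7 were below those of the other 5 piglets, with FABP1, a fatty acid binding protein, at 4.18 against 12.01 to 13.67. The epithelial adhesion gene EPCAM was at 12.94, close to the 12.81 to 12.93 of the other 5. T cell markers averaged 3.35, within the 3.02 to 3.48 of the other 5. The part of these cells and of the sample's quality in its receptor levels was not tested.

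**Figure D4:**
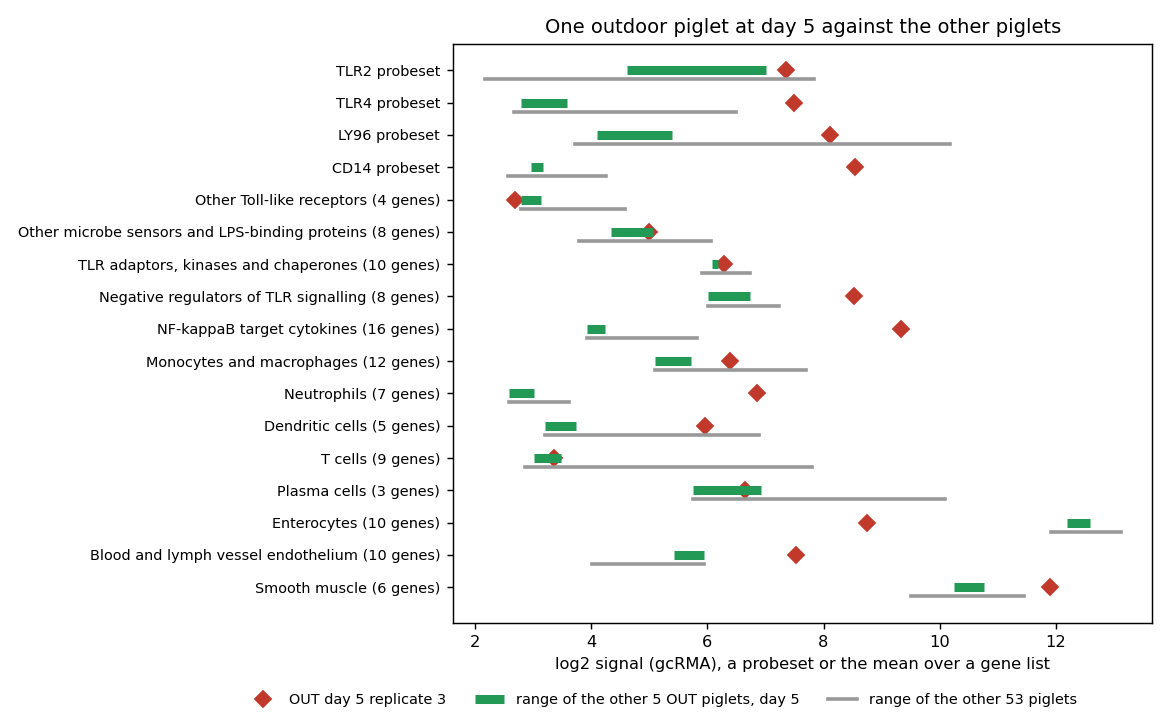
Log2 signal (horizontal axis) of the brightest probeset of each member and the mean over gene lists (rows) in OUT replicate 3 at day 5 (diamonds), with the range of the other 5 OUT piglets of that day (thick bars) and of the other 53 piglets (thin bars). CD14, TLR4 and the lists of NF-kappaB targets, negative regulators, neutrophils, endothelium and smooth muscle lay above all other piglets. The lists of enterocytes and of other Toll-like receptors lay below all other piglets.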

How the data were processed

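Each of 54 ileum RNA samples was run on its own Affymetrix Porcine Genome GeneChip. The authors scanned them with GCOS 1.2 and normalized them by gcRMA, per the submitters' notes, and the deposited log2 values were used unchanged. Groups, days and replicate numbers came from the labels, and 2 arrays at day 56 carry no number. Of 24123 rows, 66 control rows were left out and 24057 probesets tested. The platform annotation gave 1 symbol to 10099 rows, several to 198 and none to 13826. Where a gene had several probesets, the brightest over all arrays stood for it.

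Fits used limma 3.58.1 in R 4.3.3, with the 3 groups of a day for rearing and all 9 groups for age and for changes of a contrast between days, without a block. Probesets with p under 0.01 before adjustment that changed at least 2-fold were called, and p-values were adjusted by Benjamini-Hochberg over all probesets. Exact permutation tests were two-sided. The code was tested on simulated data. Members and lists were chosen with earlier results of these data known. Text names all members, up to 4 genes of a pathway list and 3 of a cell type list with the smallest p within days, and the 5 genes most like each member, and other genes were chosen after their values were seen. Alternatives were other blocks, groups in the fit, scalings, filters, array weights, the F-test, adjusted p and each array left out. An array was left out in comparisons of its own day and, between days, in those of its own rearing group. Figures used matplotlib 3.10.9 and permutations scipy 1.17.1 in Python 3.11.15.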

Additional observations from a re-analysis of the deposited data

Results flagged for a closer look

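Of 81 sets of 6 piglets (9 probesets in 9 groups), 11 held a piglet whose gap to the nearest other exceeded Dixon's critical share of the range, where chance alone gives about 1 in 20. OUT replicate 3 at day 5 was the far one in 6 of them. Its values were 7.48, 7.84, 5.89 and 5.25 in 4 TLR4 probesets (other 5 piglets: 2.79 to 3.59, 2.87 to 3.66, 3.17 to 3.47 and 2.34 to 2.98), 8.11 for LY96 (4.09 to 5.39) and 8.54 for CD14 (2.96 to 3.18). The inflammatory, neutrophil and enterocyte genes of this piglet are given above, and their part was not tested.

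Another 5 piglets were far from their group in 1 probeset each. TLR2 was at 3.31 in IR replicate 2 at day 28, below 4.23 to 4.76 in the rest. LY96 was at 5.76 in IR replicate 1 at day 5, above 4.09 to 4.61. CD14 was at 4.25 in OUT replicate 5 at day 56, above 2.67 to 3.25. In 1 of the dimmer TLR4 probesets the value was 3.30 in IN replicate 5 at day 5, below 3.49 to 3.58, and 3.28 in IN replicate 1 at day 56, below 3.78 to 4.01. No change of a rearing contrast between days passed adjustment.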

How the results depend on the processing

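No result that was called, in the main fit or under the alternative, reversed its sign. Uncalled results were not counted in this, and the sign of some turned without OUT replicate 3 at day 5, as given above. Of 1458 values under other settings 1446 kept their call, 8 lost it and 4 gained it, and of 4212 with 1 array left out 4179 kept it, 25 lost it and 8 gained it. Calling by adjusted p under 0.05 removed the day 5 calls of TLR2 (-1.83 and -1.77) and the day 56 call of LY96 (-1.59), which left 0 members in each of those comparisons, and 0 in IN between days 56 and 28. Over the other settings the adjusted p of these 3 lay between 0.0772 and 0.942. With the F-test, which gives 1 p to all 3 comparisons of a day, 1 member, LY96, was called in IR against IN at day 56. Fitting only the 3 days of a rearing group gave 2 calls in IR between days 56 and 28 (TLR2 and TLR4), 2 between days 56 and 5, 0 in IN between days 56 and 28 and 1 in OUT between days 28 and 5, where LY96 was lost.

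With arrays left out, TLR2 at day 5 ranged from -2.13 to -1.59 in IR against OUT and from -1.95 to -1.44 in IR against IN, and LY96 at day 56 from -1.86 to -1.33, all called. Counts ranged from 1 to 2 in IR against OUT and 0 to 1 in IR against IN at day 56, 0 to 1 in IR and 0 to 1 in IN between days 56 and 28, 1 to 2 in IR and 2 to 3 in IN and OUT between days 56 and 5, and 1 to 3 in OUT between days 28 and 5. TLR2 in IR gained a call without IR replicate 2 at day 56 (-1.45 from day 28, -1.43 from day 5) or replicate 2 at day 28 (-1.42). TLR2 in IN between days 56 and 28 lost it without the unnumbered array or replicates 1 or 5 of day 56 or replicates 2 or 4 of day 28 (-1.37 to -0.95). Of the IN arrays, TLR4 in IN between days 56 and 5 kept its call only without replicate 1 of day 5 or replicates 2 or 3 of day 28 (1.07 to 1.23 elsewhere). Arrays of IR and OUT, which share the spread of that fit, were not left out there. The 2 days did not overlap for TLR4 in IN (exact permutation p = 0.00216). LY96 in OUT between days 28 and 5 lost its call without replicates 3 or 4 of day 28 or 1, 2 or 5 of day 5 (1.58 to 1.60). Without OUT replicate 3 at day 5, an alternative chosen after seeing the data, 7 in place of 12 probesets were called in IN against OUT at day 5.

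The replicate block by label number or by numbers in twos left the within-day counts of members as they were. In twos it gave 0 members in IN between days 56 and 28, with TLR2 at -1.40, and TLR4 in IN between days 56 and 5 at 1.201, no longer called. Same-numbered arrays deviated together little on average, with mean r of 0.02, 0.04 and 0.01 at days 5, 28 and 56. Of 18, 18 and 14 such pairs, 6, 8 and 5 had an r over 0.1. Such means cannot tell whether the numbers stand for a run or sow with a weak shared effect. Dim signals limit TLR4 and CD14, and in part TLR2, which reached 4 in 36 of 54 arrays and averaged 3.10 in IR at day 56.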
